A study of Mus musculus with 4 samples.

Results

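Transcripts of 10 genes of the nuclear lamina and envelope were followed in mouse blood progenitor cells transformed by an MLL-ENL fusion. The 10 genes are the lamin genes Lmna, Lmnb1 and Lmnb2, the envelope genes Lbr, Emd and Banf1, and the SUN and nesprin genes Sun1, Sun2, Syne1 and Syne2. They were picked by symbol from the 55426 genes of the deposited tables, as a family put together because Lmna was much higher in 1 of the groups, and all 10 passed the filter on low counts. MLL-ENL ∆YEATS cells carry a fusion that holds ENL residues 372 to 559. It thus lacks all ENL residues before 372, among them the YEATS domain, the part of ENL that binds acylated histone tails. MLL-ENL cells carry the MLL-ENL fusion, whose ENL residues the labels do not state. Both lines are transformed haematopoietic stem and progenitor cells from lineage-negative mouse bone marrow, kept in the same culture medium, and the labels state no strain, sex or age. Each group has 2 libraries of poly(A)-selected RNA, which the series calls technical replicates. P-values therefore measure the spread between libraries that may come from 1 line per genotype, and genotype and line cannot be told apart.

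The nuclear lamina is a mesh of lamin filaments under the inner nuclear membrane that holds peripheral chromatin and gives the nucleus its stiffness. Lmna encodes the A-type lamins A and C, which are scarce in many immature cells and abundant in stiff tissues, and Lmnb1 and Lmnb2 encode the B-type lamins, which nearly all cells make. Lbr, the lamin B receptor, ties heterochromatin to the B-type lamina and is known for its role in the lobed nucleus of neutrophils. SUN proteins of the inner membrane and nesprins (Syne genes) of the outer membrane join into the LINC complex, which links the lamina to the cytoskeleton.

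Total expected counts lay between 27812855 and 28814798 per library. The MLL-ENL pair was further apart (chi-square per degree of freedom 89.8 over genes with at least 10 counts, against 1.99 in the MLL-ENL ∆YEATS pair), and longer genes had lower values in replicate 1 relative to replicate 2 (Spearman's rho of the log2 ratio with exonic length = -0.391 across 13237 genes, which are not independent). Both pairs differed by more than sampling noise, and each library was counted as a replicate. Mllt1 (ENL) had 64.0 and 59.3 CPM (counts scaled to library size) in MLL-ENL ∆YEATS against 67.7 and 62.1 CPM in MLL-ENL libraries, which does not check the label, since no source states how fusion reads were assigned. Of the progenitor genes, Ptprc (CD45) and Myb were present in every library. Kit, the stem cell factor receptor, was at 2.62 and 3.91 CPM in MLL-ENL ∆YEATS libraries and at 50.4 and 66.9 CPM in MLL-ENL libraries, and Cd34 was at or below 0.105 CPM in all 4.

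The 250 bases before the first listed RefSeq start site of each of the 3 genes that best show the pattern below are printed here. They are from GRCm38.p6 and read 5′ to 3′ on the strand of the gene. Lmna and Lbr were the members with the largest log2 fold changes, and Lmnb2 is a B-type lamin gene with a small one. A gene is said to be called below where its adjusted p over all genes was under 0.05 by edgeR's quasi-likelihood test. Fits without an MLL-ENL library take their spread from the closer MLL-ENL ∆YEATS pair and call many more of all genes. Those without an MLL-ENL ∆YEATS library call fewer of all genes. Calls in such fits are read with that limit. Capitals mark matches, on either strand, to the GC box GGGCGG, the CCAAT box CCAAT and the AP-1 site TGANTCA.
Lmna (chr3:88503353-88503602, minus strand): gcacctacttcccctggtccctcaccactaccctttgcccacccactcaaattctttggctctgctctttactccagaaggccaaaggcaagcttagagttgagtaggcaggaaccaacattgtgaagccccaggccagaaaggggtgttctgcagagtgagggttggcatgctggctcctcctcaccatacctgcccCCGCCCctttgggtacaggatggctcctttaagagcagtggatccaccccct
Lbr (chr1:181842402-181842651, minus strand): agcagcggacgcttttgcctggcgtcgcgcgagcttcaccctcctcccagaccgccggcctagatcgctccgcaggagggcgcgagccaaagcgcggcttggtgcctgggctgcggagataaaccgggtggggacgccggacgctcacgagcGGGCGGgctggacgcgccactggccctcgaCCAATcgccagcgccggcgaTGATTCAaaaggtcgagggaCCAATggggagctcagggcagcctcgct
Lmnb2 (chr10:80918246-80918495, minus strand): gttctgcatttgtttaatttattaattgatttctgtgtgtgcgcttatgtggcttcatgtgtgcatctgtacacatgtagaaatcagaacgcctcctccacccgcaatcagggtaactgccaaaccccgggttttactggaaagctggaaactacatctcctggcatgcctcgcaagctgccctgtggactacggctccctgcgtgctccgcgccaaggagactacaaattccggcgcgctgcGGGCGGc
The window of Lmna held 1 GC box, no CCAAT box and no AP-1 match, with 56.4% G and C and 1 CpG. That of Lbr held 1 GC box, 2 CCAAT boxes and 1 AP-1 match, with 69.6% G and C and 31 CpGs, and that of Lmnb2 held 1 GC box, with 52.8% G and C and 14 CpGs. No window of the 3 held the TATA box TATAAA or the E-box CACGTG, and no marked matches overlapped. Over 32851 promoter windows of the same length, 32.7% held a GC box, 33.8% a CCAAT box, 6.75% an AP-1 match, 12.4% a TATA box and 6.02% an E-box, and the median window had 6 CpGs. The windows of Lmna and Lbr lie inside the annotated gene bodies. So does that of the second RefSeq start site of Lmna, at chr3:88493313-88493562, which held 1 CCAAT box and 4 CpGs. The annotated 5′ ends of the 2 genes lie further out, at 88509956 for Lmna and 181843046 for Lbr. The bases before those ends were not read, so the Lmna windows may not show its main promoter. RefSeq windows matched 9 of the 10 genes, and none was found for Lmnb1. A match is a run of letters and not a measured binding site.

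Of the lamins, Lmna was much higher in the MLL-ENL ∆YEATS libraries while neither B-type lamin was called. Lmna (ENSMUSG00000028063, chromosome 3, 88480147 to 88509956, minus strand, GRCm38) had 1969 and 1737 expected counts in the MLL-ENL ∆YEATS libraries against 98 and 81 in the MLL-ENL libraries. Scaled to library size these were 67.1 and 60.6 CPM against 3.66 and 2.88 CPM. Both MLL-ENL ∆YEATS libraries lay far above both MLL-ENL libraries, and the spread within each pair was small beside the gap. The fitted log2 fold change, MLL-ENL ∆YEATS minus MLL-ENL throughout, was 4.29 ± 0.17 (SE), or 19.5-fold, the 78th highest of the 13245 genes tested. This is the value for which the family was chosen, so it is given as a description with no test. Leaving out each library in turn gave between 4.12 and 4.47.

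Lmnb1 (chromosome 18, 56707813 to 56753424, plus strand) had 415.3 and 408.2 CPM in the MLL-ENL ∆YEATS libraries and 364.8 and 344.4 CPM in the MLL-ENL libraries. The groups did not overlap, and the log2 fold change of 0.22 ± 0.10 (SE) was not called. Lmnb2 (chromosome 10, 80901203 to 80918245, minus strand) had 106.0 and 102.3 CPM against 115.2 and 121.5 CPM, again without overlap, at a log2 fold change of -0.18 ± 0.11 (SE) that was not called. For 64.3% of all tested genes the groups likewise did not overlap. Without MLL-ENL replicate 1 or 2 both were called, Lmnb1 at 0.26 and 0.17 and Lmnb2 at -0.22 and -0.15.

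**Figure D1:**
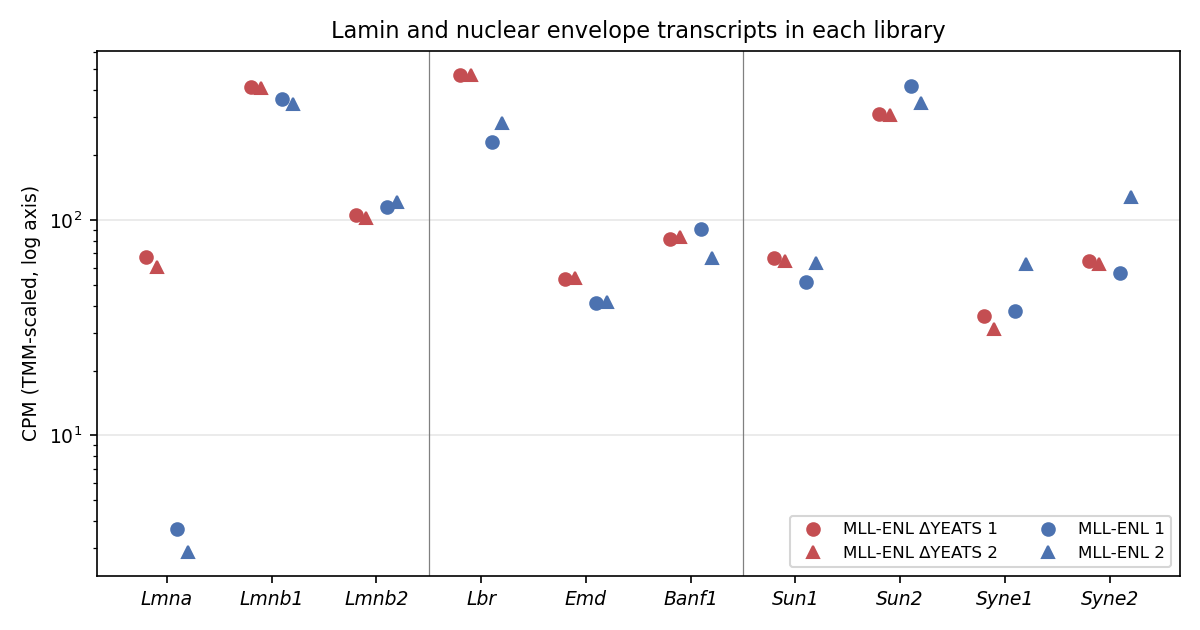
CPM of each of the 10 genes (log axis) in the 2 MLL-ENL ∆YEATS libraries (red) and the 2 MLL-ENL libraries (blue), with circles for replicate 1 and triangles for replicate 2; vertical lines separate lamins, other envelope genes and LINC complex genes. Lmna stands at 60.6 to 67.1 CPM against 2.88 to 3.66 CPM, and the 2 MLL-ENL libraries lie apart for Syne1 and Syne2.

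Per length, the deposited FPKM (fragments scaled to transcript length and library size) place these genes on 1 scale. The FPKM of Lmna was 38.29 and 34.75 in the MLL-ENL ∆YEATS libraries against 1.94 and 1.7 in the MLL-ENL libraries. It lay above 77.1% and 75.3% of tested genes in the MLL-ENL ∆YEATS libraries and above 23.5% and 20.9% in the MLL-ENL libraries. Of the summed FPKM of the 3 lamin genes, Lmna made up 15.9% and 15.0% in the MLL-ENL ∆YEATS libraries and 1.11% and 0.945% in the MLL-ENL libraries. The ratio of A-type to B-type lamin transcripts, Lmna over Lmnb1 plus Lmnb2, averaged 0.183 ± 0.00956 in MLL-ENL ∆YEATS and 0.0104 ± 0.00122 in MLL-ENL cells (SD, n = 2 each). B-type transcripts remained the larger part in every library, at 202.1 and 197.5 FPKM in MLL-ENL ∆YEATS against 172.2 and 178.2 FPKM in MLL-ENL libraries. Within the B-type pair, Lmnb1 was 4.73 and 4.84 times the FPKM of Lmnb2 in the MLL-ENL ∆YEATS libraries and 3.79 and 3.41 times in the MLL-ENL libraries. The size of the ratios depends on the length used. With counts per kilobase of all annotated exons in place of FPKM, the A-to-B ratio was 0.0669 in MLL-ENL ∆YEATS and 0.00379 in MLL-ENL cells. The gap between the groups was 17.6-fold with either length. A length fixed per gene largely cancels from it, so the match is no separate check. The ratio holds Lmna, for which the family was chosen, and is given as a description.

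**Figure D2:**
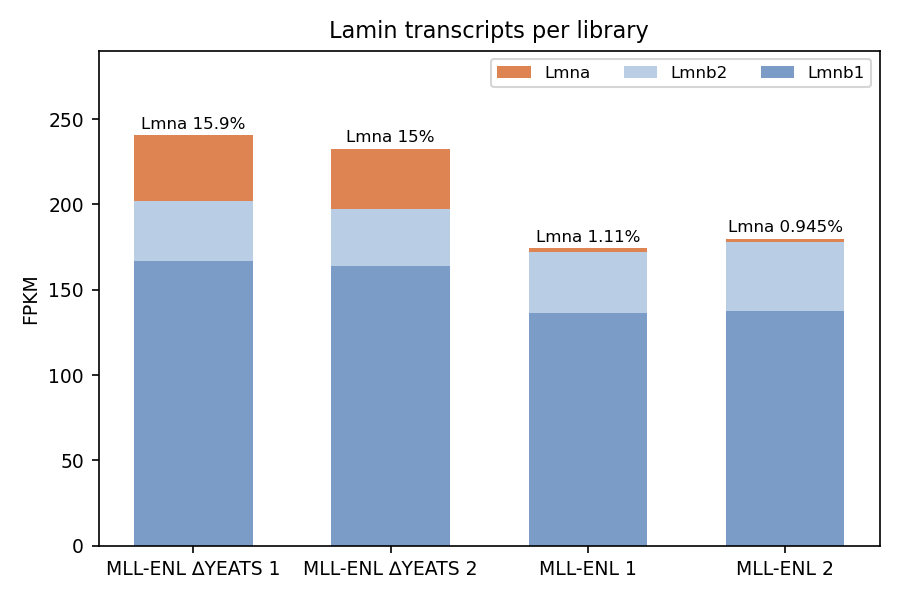
Stacked FPKM of Lmnb1, Lmnb2 and Lmna in each library, with the share of Lmna above each bar. Lmna takes 15.0% to 15.9% of lamin FPKM in the MLL-ENL ∆YEATS libraries and 0.945% to 1.11% in the MLL-ENL libraries.

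Markers of other cells were read beside Lmna, which fibroblasts, macrophages and megakaryocytes also express. In these bulk samples fewer cells of a type and less RNA per cell cannot be told apart. Of 10 fibroblast and stromal markers 2 passed the filter, and the summed level of the list was 8.28 and 8.31 CPM in MLL-ENL ∆YEATS against 10.6 and 7.29 CPM in MLL-ENL libraries. Most of this level was Acta2, at 7.49 and 7.68 CPM against 9.97 and 6.86 CPM, which was not called. The collagen genes of the list, Col1a1, Col1a2 and Col3a1, were at or below 0.56 CPM in all libraries, and Dcn, Lum and Postn had no counts. Pdgfra was the 1 called gene of the list, at 0.375 and 0.384 CPM against 0 and 0.0356 CPM, and was not called without MLL-ENL ∆YEATS replicate 1 or 2. Of 10 megakaryocyte markers 3 passed the filter, with a summed level of 10.5 and 9.95 CPM against 9.93 and 8.39 CPM and Pf4 at or below 0.284 CPM. EdgeR called 0 of these 3 (1 higher at an unadjusted p under 0.05, and 0 with DESeq2 or limma), and without MLL-ENL replicate 1 or 2 it called 1 higher in each case and 0 and 2 lower. Of 10 macrophage markers 5 were tested and 3 rose (Adgre1, Csf1r and Cd68). With limma on log2(FPKM + 1), 1 was called higher. The summed level of the list was 465.2 and 457.7 CPM in MLL-ENL ∆YEATS against 246.4 and 402.2 CPM in MLL-ENL libraries. Most of it was Itgam, at 387.7 and 382.0 CPM against 212.3 and 358.6 CPM, which was not called. C1qa, C1qb and Timd4 had no counts and Mertk was at or below 0.0356 CPM. Of 10 neutrophil markers 6 rose and 1 fell, and the summed level was 394.9 and 410.3 CPM against 160.4 and 134.3 CPM. In MLL-ENL ∆YEATS most of it was S100a8 (124.1 and 143.1 CPM against 34.7 and 25.2) and S100a9 (199.6 and 195.6 CPM against 42.8 and 38.1). Lcn2, Mmp9, Cxcr2 and Mmp8 also rose, Cxcr2 from 0.448 and 0.711 CPM and Mmp8 from 0.112 and 0.107 CPM in MLL-ENL libraries. The gene that fell was Ngp (log2 fold change -1.37). Ly6g (-0.86), Camp (-0.5) and Ltf (-0.27) were also lower but not called. Without MLL-ENL replicate 1 or 2, 5 and 4 macrophage markers were called higher. With MLL-ENL ∆YEATS replicate 1 left out, 2 markers were. The summed levels of the macrophage and neutrophil lists were higher in the same libraries as Lmna, though not every gene of the lists was. Their part in its difference was not tested.

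Lbr had the second highest log2 fold change of the members. Lbr (ENSMUSG00000004880, chromosome 1, 181815335 to 181843046, minus strand) had 470.0 and 473.1 CPM in the MLL-ENL ∆YEATS libraries against 229.3 and 281.1 CPM in the MLL-ENL libraries. The MLL-ENL ∆YEATS libraries nearly coincided, and both MLL-ENL libraries lay well below them. The log2 fold change was 0.89 ± 0.13 (SE), or 1.85-fold, and was called. Leaving out MLL-ENL replicate 1 gave 0.75 and leaving out its replicate 2 gave 1.04, both called. Leaving out MLL-ENL ∆YEATS replicate 1 or 2 gave 0.89 and 0.88, and the call was lost. By FPKM, Lbr had 196.44 and 191.65 against 78.29 and 100.25, a log2 difference of 1.12 on the log2(FPKM + 1) scale. The mean transcript length that counts and FPKM imply together was 2438 and 2511 bases for Lbr in the MLL-ENL ∆YEATS libraries against 2789 and 2835 bases in the MLL-ENL libraries. Exons of Lbr share 440 bases with the antisense gene Dnah14, which had between 50 and 90 counts per library.

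Emd encodes emerin, a LEM-domain protein of the inner membrane that binds A-type lamins, and Banf1 encodes barrier-to-autointegration factor, which joins DNA to LEM-domain proteins. Emd (chromosome X, 74254687 to 74261548, plus strand) had 53.1 and 53.9 CPM in the MLL-ENL ∆YEATS libraries and 41.1 and 41.4 CPM in the MLL-ENL libraries. Its pairs were tight and did not overlap, yet the log2 fold change of 0.38 ± 0.11 (SE) was not called by edgeR's test of the groups with no further term. It kept a value between 0.36 and 0.38 when any 1 library was left out, and was called without MLL-ENL replicate 1 or 2. With the gene-length trend removed, a step chosen after the data were seen, Emd was called higher at 0.43. Banf1 (chromosome 19, 5364638 to 5367168, minus strand) had 81.2 and 83.7 CPM in the MLL-ENL ∆YEATS libraries, between the 90.4 and 66.5 CPM of the MLL-ENL libraries. The log2 fold change of Banf1 was 0.07 ± 0.17 (SE), and its sign rested on the MLL-ENL library used, at 0.31 (called higher) without replicate 1 and -0.13 (called lower) without replicate 2. Exons of Banf1 share 428 bases with the antisense gene Eif1ad, which had 2186 to 2653 counts, so its level is uncertain without a stated strand setting.

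In the LINC complex no member was called by edgeR's test of the groups with no further term, nor by DESeq2 or limma on log2(FPKM + 1). Sun1 (chromosome 5, 139200637 to 139249840, plus strand) had 66.5 and 64.8 CPM in the MLL-ENL ∆YEATS libraries against 51.6 and 63.3 CPM in the MLL-ENL libraries (log2 fold change 0.19 ± 0.14, SE). Sun2 (chromosome 15, 79724070 to 79742536, minus strand) had 309.7 and 308.0 CPM against 420.2 and 349.9 CPM (-0.32 ± 0.13, SE). Neither gene overlapped between the groups, as for 64.3% of all tested genes, and MLL-ENL replicate 2 was the nearer library in both. Sun2 was called lower without MLL-ENL replicate 1 (-0.18) or 2 (-0.44), and Sun1 was called higher without replicate 2 (0.35), with a log2 fold change of 0.05 without replicate 1. Per length, Sun2 exceeded Sun1 4.05 and 4.03 times in the MLL-ENL ∆YEATS libraries and 7.11 and 4.88 times in the MLL-ENL libraries.

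The nesprin genes Syne1 and Syne2, whose longest annotated coding transcripts have 27908 and 21704 bases, showed the widest spread within the MLL-ENL pair. Syne1 (chromosome 10, 5020917 to 5551482, minus strand) had 36.0 and 31.3 CPM in the MLL-ENL ∆YEATS libraries and 37.9 and 62.7 CPM in the MLL-ENL libraries. Syne2 (chromosome 12, 75818134 to 76110926, plus strand) had 64.8 and 62.5 CPM against 56.9 and 127.8 CPM. MLL-ENL replicate 2 stood above the other 3 libraries in both genes, and the groups overlapped for Syne2. The log2 ratio of MLL-ENL replicate 1 to replicate 2 was -0.72 for Syne1 and -1.17 for Syne2, against 0.20 and 0.05 for replicate 1 to replicate 2 of MLL-ENL ∆YEATS. Log2 fold changes were -0.58 ± 0.25 and -0.54 ± 0.37 (SE). Leaving out MLL-ENL replicate 1 gave -0.90 and -1.01, and leaving out its replicate 2 gave -0.17 and 0.16, all 4 called, so that the direction of Syne2 depended on which MLL-ENL library was used. With the gene-length trend removed, a step chosen after the data were seen, Syne1 was called lower at -0.59. With a replicate block in the edgeR fit it was called lower at -0.54.

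For both nesprin genes the implied mean transcript length was far below the longest coding transcript. It was 6134 and 6412 bases for Syne1 in the MLL-ENL ∆YEATS libraries and 6629 and 6787 bases in the MLL-ENL libraries. Syne2 had 7801 and 7995 bases against 6244 and 8853 bases. The value of MLL-ENL replicate 1 was 0.705 times that of replicate 2 for Syne2, where the middle 90 percent of 8583 genes with at least 200 counts in each library lay between 0.896 and 1.19. For Lmna the implied length was 1785 and 1774 bases in the MLL-ENL ∆YEATS libraries and 1796 and 1713 bases in the MLL-ENL libraries, similar in both groups.

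**Figure D3:**
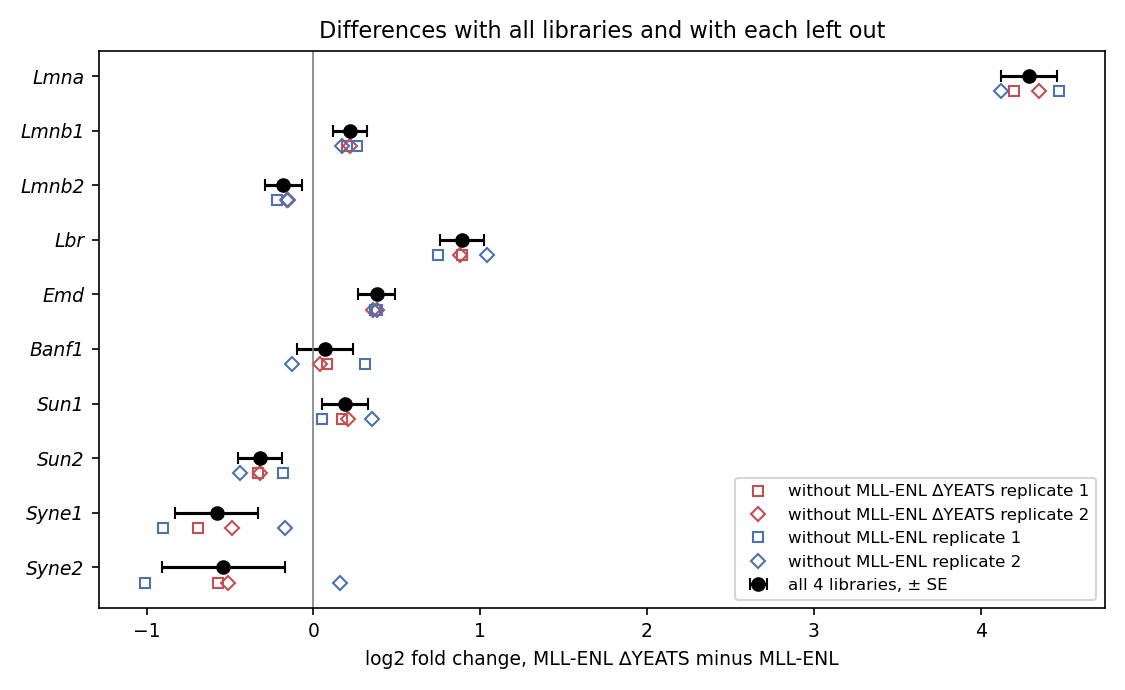
Log2 fold change of each member, MLL-ENL ∆YEATS minus MLL-ENL, with all 4 libraries (black, ± SE) and with each library left out (open symbols below). Lmna stays between 4.12 and 4.47 and Lbr between 0.75 and 1.04, while Banf1 and Syne2 lie on both sides of 0 depending on the MLL-ENL library left out.

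Across the family, 2 of 10 members were called higher (Lmna and Lbr) and 0 lower by edgeR's quasi-likelihood test at an adjusted p under 0.05. At an unadjusted p under 0.05 the counts were 3 and 0, and DESeq2 and limma on log2(FPKM + 1) each called 2 and 0. Among all genes tested, 7.04% of 13245 genes were called higher and 9.84% lower. The groups did not overlap in CPM for 8 members, 5 higher and 3 lower, where 64.3% of all tested genes did not overlap. The median log2 fold change of the members was 0.13, against -0.01 over all tested genes. Since this contrast chose the family, nothing further is read from these counts. They moved widely with the libraries used. Without MLL-ENL replicate 1 or 2, more members were called in both directions, as were more of all genes. Without MLL-ENL ∆YEATS replicate 1 or 2, fewer members were called, as were fewer of all genes.

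By FPKM the order of the members differed between the groups. In MLL-ENL ∆YEATS cells Lbr led with 194.0 ± 3.39 FPKM (SD, n = 2), followed by Lmnb1 (165.3), Banf1 (110.8), Sun2 (92.6), Emd (65.8), Lmna (36.5), Lmnb2 (34.6), Sun1 (22.9), Syne2 (8.21) and Syne1 (5.47). Among neighbours in that order only Lmna and Lmnb2 overlapped between libraries. In MLL-ENL cells Lmnb1 led with 137.0 ± 1.10 FPKM (SD, n = 2), followed by Sun2 (111.2), Banf1 (98.2), Lbr (89.3), Emd (48.4), Lmnb2 (38.2), Sun1 (19.0), Syne2 (11.6), Syne1 (7.39) and Lmna (1.82). Here Sun2 with Banf1, Banf1 with Lbr and Syne2 with Syne1 overlapped. Lbr thus stood at 1.18 and 1.17 times the FPKM of Lmnb1 in the MLL-ENL ∆YEATS libraries and at 0.575 and 0.728 times in the MLL-ENL libraries. Lbr exceeded Lmna 5.13 and 5.52 times in the MLL-ENL ∆YEATS libraries and 40.4 and 59.0 times in the MLL-ENL libraries.

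Other genes of the nuclear envelope were read from 5 lists of 76 genes, of which 72 passed the filter. Of these 5 rose, 5 fell and 62 were not called. The median log2 fold change was 0.12, beside -0.01 over all tested genes, and 7.04% and 9.84% of all tested genes were called higher and lower. These counts also rested on the libraries used. Without MLL-ENL replicate 1 or 2, more genes of the lists were called in both directions, as were more of all genes. Without MLL-ENL ∆YEATS replicate 1 or 2, fewer were called, as were fewer of all genes.

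Of 18 further inner membrane proteins, torsins and torsin cofactors, 2 rose and 2 fell. Tmpo, which encodes the LEM-domain lamina-associated polypeptides, had 443.6 and 442.6 CPM in the MLL-ENL ∆YEATS libraries against 232.9 and 311.5 CPM in the MLL-ENL libraries (log2 fold change 0.70 ± 0.16 SE, adjusted p = 0.0406 by edgeR). Its call ended without either MLL-ENL ∆YEATS library (adjusted p = 0.22 and 0.217) and in 5 other alternatives, and its exons share 244 bases with Gm26765 on the opposite strand. Lnpk, a shaper of the endoplasmic reticulum that lies outside the naming rule and was chosen after its values were seen, had 57.8 and 61.6 CPM against 39.4 and 44.1 CPM (0.52 ± 0.12 SE, adjusted p = 0.0414 by edgeR), and lost its call in 8 of 15 alternatives, with an adjusted p of 0.401 and 0.555 without MLL-ENL ∆YEATS replicate 1 or 2 (at 0.56 and 0.46). Tm7sf2, a sterol reductase related to Lbr, was lower, at 16.3 and 16.8 CPM in the MLL-ENL ∆YEATS libraries against 47.9 and 40.7 CPM in the MLL-ENL libraries (-1.42 ± 0.13 SE, adjusted p = 0.00239 by edgeR). It kept this call in all 15 alternatives, with log2 fold changes between -1.53 and -1.27, although its exons share 532 bases with Vps51 on the same strand. Per length, Lbr stood 10.7 and 10.5 times above Tm7sf2 in the MLL-ENL ∆YEATS libraries and 1.64 and 2.29 times above it in the MLL-ENL libraries. The torsin gene Tor3a fell to 34.3 and 34.9 CPM in MLL-ENL ∆YEATS, against 50.3 and 49.7 CPM in MLL-ENL libraries (-0.53 ± 0.11 SE, adjusted p = 0.0271 by edgeR), and lost its call without either MLL-ENL ∆YEATS library (0.487 and 0.449, at -0.52 and -0.55) and with limma on log2 FPKM (0.0891 to 0.125).

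Enzymes that process the farnesylated lamin precursors gave 1 call among 5. Fnta, the alpha subunit of protein farnesyltransferase, had 55.8 and 55.0 CPM in the MLL-ENL ∆YEATS libraries against 82.9 and 77.2 CPM in the MLL-ENL libraries (-0.53 ± 0.11 SE, adjusted p = 0.0284 by edgeR), and lost its call without either MLL-ENL ∆YEATS library (0.453 and 0.486, at -0.55 and -0.53) and with limma on log2 FPKM (0.0593 to 0.0851). Zmpste24, the protease that cuts prelamin A and chosen here after its values were seen, had 122.2 and 127.8 CPM against 88.0 and 104.3 CPM and was not called by edgeR (adjusted p = 0.107), although it was without MLL-ENL replicate 1 or 2 (log2 fold changes 0.26 and 0.51). Of 7 further SUN and KASH genes 4 were tested. Syne4 (nesprin-4) was called at 1.43 and 1.54 CPM in MLL-ENL ∆YEATS against 0.485 and 0.427 CPM in MLL-ENL libraries (1.69 ± 0.28 SE, adjusted p = 0.0144 by edgeR), but not without MLL-ENL ∆YEATS replicate 2 (adjusted p = 0.058) or with DESeq2 (0.0579). Syne3 (nesprin-3) had 89.3 and 85.8 CPM against 58.5 and 70.1 CPM and was not called (adjusted p = 0.0777), although it was called without either MLL-ENL library, at log2 fold changes of 0.32 and 0.58.

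Of 31 nucleoporin genes 30 were tested, and 2 rose, 1 fell and 27 were not called, with a median log2 fold change of 0.24. Nup35, a scaffold nucleoporin, averaged 30.3 ± 0.471 CPM in MLL-ENL ∆YEATS and 19.5 ± 2.19 CPM in MLL-ENL cells (SD, n = 2 each, log2 fold change 0.64 ± 0.13 SE, adjusted p = 0.0284 by edgeR). Nup43, of the Y complex, had 20.6 and 21.5 CPM against 13.4 and 14.7 CPM (0.58 ± 0.12 SE, adjusted p = 0.0295 by edgeR). Nup50 had 128.0 and 121.2 CPM against 175.4 and 163.3 CPM (-0.44 ± 0.11 SE, adjusted p = 0.0482 by edgeR). By FPKM Nup50 was at 47.1 and 44.8 against 47.11 and 49.17, a difference of -0.07 on the log2(FPKM + 1) scale that was not called. None of the 3 was called without MLL-ENL ∆YEATS replicate 1 or 2, with adjusted p between 0.222 and 0.675, nor with limma on log2 FPKM, and Nup50 lost its call in 10 of 15 alternatives, with DESeq2 (0.0545), library totals (0.0697), no filter (0.0703) and a minimum of 5 CPM (0.0505) among them. Exons of Nup35 share 131 bases with Dusp19 on the same strand. The untested entry, Nupl1, was matched by an older symbol, has no annotated coding transcript and was listed at 0 in all libraries. The level of the coding nucleoporin gene was therefore not read from it.

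Of 15 factors that take apart and reseal the envelope, Lpin1 was the 1 called gene. This phosphatidate phosphatase had 12.4 and 12.6 CPM in the MLL-ENL ∆YEATS libraries against 25.4 and 27.5 CPM in the MLL-ENL libraries (-1.09 ± 0.12 SE, adjusted p = 0.00388 by edgeR). It was not called with limma on log2 FPKM (adjusted p from 0.057 to 0.155). The median of the list was -0.09. Of 12 proliferation genes, read since lamin B1 is known to be lost from senescent cells, edgeR called 0 in either direction (3 higher and 1 lower at an unadjusted p under 0.05, and 0 with DESeq2 or limma on log2 FPKM). Their median log2 fold change was 0.00. Without MLL-ENL replicate 1 or 2, 5 and 6 were called higher and 3 and 3 lower. Mki67 had 745.6 and 744.1 CPM in MLL-ENL ∆YEATS against 590.3 and 913.0 CPM in MLL-ENL libraries.

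**Figure D4:**
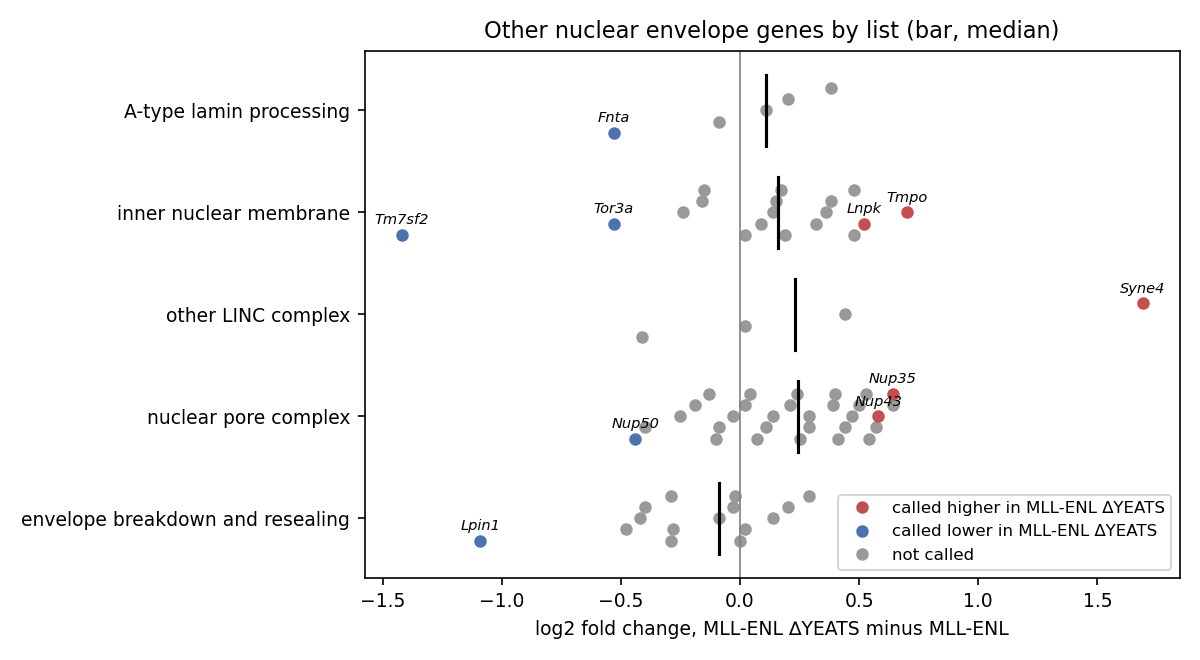
Log2 fold change, MLL-ENL ∆YEATS minus MLL-ENL, of the 72 tested genes of the 5 envelope lists, with calls in red (higher) and blue (lower) and a bar at each list's median. Called genes are labelled, and 5 lie on each side of 0.

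Genes next to Lmna on chromosome 3 had far smaller log2 fold changes than Lmna. Of the 3 nearest tested protein-coding genes on each side, edgeR called 0 in either direction (0 higher and 1 lower at an unadjusted p under 0.05, 1 lower with DESeq2 and 0 with limma on log2 FPKM). Sema4a, a semaphorin gene 18965 bases away, had 132.6 and 132.8 CPM in the MLL-ENL ∆YEATS libraries against 135.5 and 160.5 CPM in the MLL-ENL libraries (-0.16 ± 0.13, SE). Mex3a, which encodes an RNA-binding protein and lies 22439 bases away on the other side, had 2.62 and 1.92 CPM against 1.68 and 1.71 CPM (0.42 ± 0.25, SE). The 6 log2 fold changes ran from -0.60 for Lamtor2, a subunit of the Ragulator complex (SE 0.19, adjusted p = 0.0912 by edgeR), to that of Mex3a (adjusted p = 0.3). Lamtor2 was the gene called lower with DESeq2 (adjusted p = 0.0282). It was also called lower by edgeR with a replicate block (-0.58, adjusted p = 0.0125) and with the gene-length trend removed (-0.5, adjusted p = 0.041). Leaving out MLL-ENL replicate 1 made 3 of the 6 calls (Sema4a at -0.28, Lamtor2 at -0.32 and Ubqln4 at 0.25). Leaving out its replicate 2 made 4 (Slc25a44 at 0.24, Pmf1 at -0.45, Lamtor2 at -0.84 and Ubqln4 at 0.17). Lmna itself stood at 4.29 ± 0.17.

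**Figure D5:**
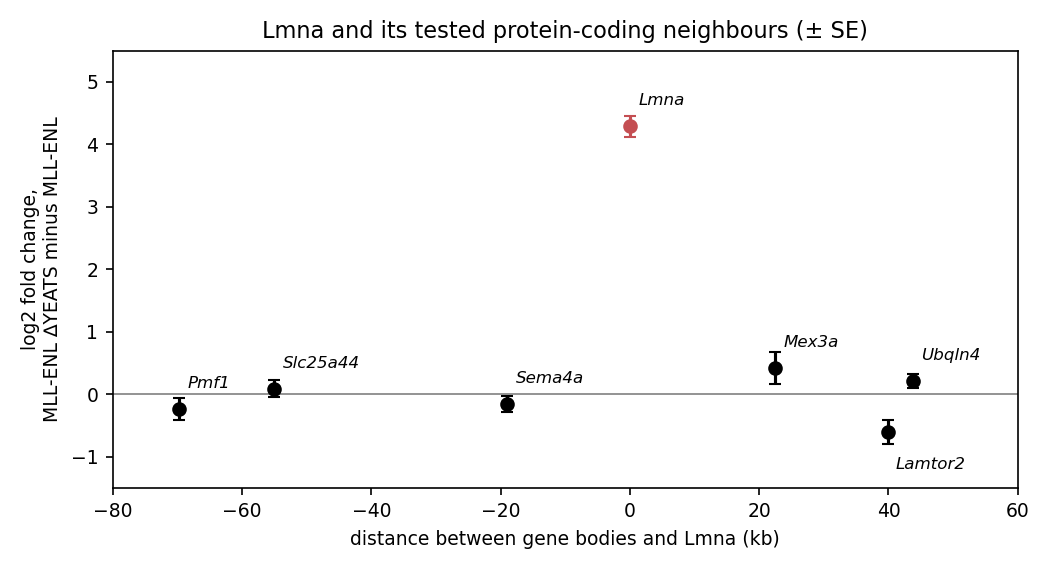
Log2 fold change (± SE), MLL-ENL ∆YEATS minus MLL-ENL, of Lmna (red) and of the 3 nearest tested protein-coding genes on each side, by the distance in kilobases between gene bodies. The neighbours lie between -0.60 and 0.42 and Lmna at 4.29.

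The protein-coding genes whose levels over the 4 libraries were nearest to those of Lmna were Gata2, Sh3pxd2a, Sept6, Penk and Crybg1. Likeness was the distance between centred log2 CPM values over 4 libraries, among 8639 genes averaging 10 CPM or more in either group, and ran from 0.451 for Gata2 to 0.728 for Crybg1. With 4 libraries in 2 groups it mostly ranks genes by the size of the same difference. Gata2, which encodes a GATA transcription factor of stem cells and mast cells, had 294 and 290 expected counts in the MLL-ENL ∆YEATS libraries against 15 and 17 in the MLL-ENL libraries. Sh3pxd2a, a podosome scaffold, had 44.8 and 44.7 CPM against 1.98 and 2.56 CPM, and Sept6, a septin, had 15.4 and 15.2 CPM against 0.934 and 1.03 CPM. Penk, which encodes the enkephalin precursor, had 96.0 and 99.2 CPM against 3.29 and 3.06 CPM.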

How the data were processed

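Poly(A)-selected RNA of 4 libraries was sequenced. Per the submitters' processing notes, the tools were RSEM 1.3.3, STAR 2.7.8a, cutadapt 2.3 and FastQC 0.11.8, and the build was GRCm38. Settings, annotation release and strand were not given in the sources used here. The authors deposited expected counts per gene, whole numbers as deposited, and FPKM, which adjust for transcript length and library size. Groups came from the sample titles. Of 55426 genes, 13245 passed edgeR's filterByExpr. They were scaled by TMM and tested with glmQLFit (legacy) and glmQLFTest (R 4.3.3, edgeR 4.0.16). P-values were adjusted by Benjamini-Hochberg over all tested genes and calls made at an adjusted p under 0.05. SE is the size of the log2 fold change divided by the square root of F. CPM uses TMM-scaled library sizes. With 2 residual degrees of freedom (prior 3.41), tests rest on the spread within both pairs; no label names molecular identifiers. The procedure was also run on simulated counts with a common spread for all genes and libraries, which does not copy the unequal pairs here. Positions and exon lengths are from GENCODE M21, which matched 55240 identifiers; 1 symbol stored as a date (Sept6) was restored from it. Implied transcript length is the count divided by the library total and the FPKM, in bases.

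The members and gene lists were chosen with earlier results of these data known. Named list genes are, per list, up to 3 called genes of largest change averaging 5 CPM or more in either group, or else the 2 genes of smallest p. Alternatives were other scalings and filters, a replicate block, each library left out, removal of ribosomal, mitochondrial and haemoglobin genes, limma 3.58.1 on log2 FPKM (pseudocounts 1 and 0.1) and DESeq2 1.42.0. Removal of the gene-length trend was chosen after seeing the data. Erythroid markers were also read, with 2 of 10 tested and 0 called by edgeR (0 at an unadjusted p under 0.05, 0 with DESeq2 or limma), and of 10 progenitor markers 1 rose and 3 fell.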

Additional observations from a re-analysis of the deposited data

How the results depend on the processing

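Over 15 alternatives, the 10 members gave 129 of 150 values with the same direction and side of the threshold, and the log2 fold change of Lmna, which chose the family, lay between 3.73 and 4.47. With each library left out in turn, log2 fold changes ran from 0.75 to 1.04 for Lbr, 0.17 to 0.26 for Lmnb1, -0.22 to -0.15 for Lmnb2, 0.36 to 0.38 for Emd, -0.13 to 0.31 for Banf1, 0.05 to 0.35 for Sun1, -0.44 to -0.18 for Sun2, -0.90 to -0.17 for Syne1 and -1.01 to 0.16 for Syne2. The reversed values were those of Banf1 (-0.13) and Syne2 (0.16) without MLL-ENL replicate 2, and those of the Lmna neighbours Slc25a44 (-0.04, with a range to 0.24) and Pmf1 (0.01, with a range to -0.45) without MLL-ENL replicate 1. In the same way, 548 to 4598 genes were called higher and 844 to 4501 lower, 1 to 6 members higher and 0 to 4 lower, and 0 to 39 other envelope genes higher and 2 to 19 lower. The high counts came without an MLL-ENL library, when the spread rested on the closer MLL-ENL ∆YEATS pair; a lone library is assumed to vary like the other group.

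With at least 5 CPM in 2 libraries, which tests fewer genes, 545 genes were called higher and 805 lower, and 2 other envelope genes higher; with library totals alone 3 were. With limma on log2(FPKM + 1), 837 genes were called lower and 1 envelope gene in each direction, as with a pseudocount of 0.1. Without a filter limma called 293 and 381 genes, 1 member higher, and 0 and 1 envelope genes; Lbr was not called (1.12). With the gene-length trend removed, 10 envelope genes were called higher and 1 member lower (Syne1, -0.59), and Emd was called (0.43). Same-numbered libraries did not deviate together (r = -0.0677). This value cannot exclude a pairing, since the MLL-ENL ∆YEATS pair differed far less than the MLL-ENL pair. A replicate block gave 1435 genes higher, 13 envelope genes higher and 1 member lower (Syne1, -0.54). The A-to-B lamin ratio per kilobase of exons was 0.0669 in MLL-ENL ∆YEATS and 0.00379 in MLL-ENL cells; by FPKM, leaving out a library gave 0.176 to 0.189 in MLL-ENL ∆YEATS and 0.00954 to 0.0113 in MLL-ENL cells. Except where construction shows it, the cause was not tested.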
